A study of Mus musculus with 2 samples.

Results

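The genes described here are 35 components of the cell division machinery, taken as every non-control probe whose gene name in the scanner files is on a list of cell cycle genes. They comprise 9 cyclins, kinases and the factor E2f1 that act at the passage from G1 into S phase, 3 inhibitors of cyclin-dependent kinases (CDKs), 9 genes of DNA replication and nucleotide supply, and 14 genes of G2 phase and mitosis. All 35 were measured, of 29924 genes named on the array, by 51 of its 39429 probes, and every one of the 51 was well above background in both channels of both arrays. The comparison asks whether transcripts of dividing cells, and of each phase separately, differed when embryonic ureters were cultured with NOGGIN, an extracellular antagonist of the bone morphogenetic proteins (BMPs).

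A cell enters division when D-type cyclins with Cdk4 or Cdk6, and then E-type cyclins with Cdk2, phosphorylate the retinoblastoma protein and release E2F factors, which switch on the genes of DNA replication. Genes of mitosis are transcribed later, in G2, so that their transcripts mark cells close to division, and CDK inhibitors such as Cdkn1a and Cdkn1c hold cells back from this course. In the embryonic ureter the epithelium and the surrounding mesenchyme both divide before the mesenchyme matures into smooth muscle, and BMP signalling is one of the pathways that regulate that maturation.

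The control group was wild-type NMRI ureters of mixed sex, taken at E13.75 (embryonic days) and kept for 18 h on transwell membranes in plain medium. The NOGGIN group was the same in strain, genotype, stage and culture time, with 10 µg/ml NOGGIN in the medium. Each of 2 two-colour arrays held 1 control and 1 NOGGIN sample, with the dyes exchanged between arrays, so every value below has n = 2. The labels do not say whether samples were pooled or came from separate litters. The p-values and intervals rest only on the spread between these samples, with each gene's variance drawn toward a value estimated from all genes. Whole ureters were used, so fewer cells of a type and less RNA per cell cannot be told apart.

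Signed values are log2 ratios with the NOGGIN-labelled channel as numerator and the control-labelled channel as denominator, as the dye labels give them, and this direction is opposite to the one that the deposited values take under the study's titles. Id1, a gene that BMP signalling induces, had a log2 ratio of 2.21 on array 1 and 2.08 on array 2. In the authors' deposited table the Id1 probe has signed fold changes of -4.65 and -4.53, under titles that set NOGGIN against control. An antagonist of BMPs would lower a gene that BMP signalling induces. The deposited values have that sign for Id1, and the dye labels have the opposite one. If the titles are right and the dye labels exchanged, every sign below turns and the sizes stay. NOGGIN and control samples are named below by the dye labels, so lower or higher in NOGGIN holds only in that direction. The markers of the labelled tissue were present: the 12 urothelial and 10 mesenchymal and smooth muscle markers were all well above background in every sample. Between 65.3% and 76.9% of probes were well above background in each sample, and the number of arrays limits the precision.

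No cell cycle gene was at least 1.5-fold higher or lower on both arrays, against 2.19% of the 22249 genes measured (0.944% higher and 1.25% lower). Mean log2 ratios of the 35 genes ran from -0.66 for Cdkn1a to 0.32 for Cdk6, with a median of -0.06, beside a median of -0.01 for all genes. No member had a limma adjusted p under 0.05, and over all genes the share was also 0%; the lowest adjusted p was 0.38 among the members and 0.0741 among all genes. Without adjustment 1 of the 35 genes, Cdkn1a, was under 0.05, against 6.05% of all genes (3.37% lower and 2.68% higher). Cdkn1a was no longer under 0.05 without adjustment with median centring or as the mean of all its probes. On the authors' deposited values Ccnd3, Cdkn1c and Mcm3 were under it beside Cdkn1a, and in a fit of separate channels Ccne1 and Cdkn1a were. The share of all genes under 0.05 was not counted in those settings, so these members have no background to be set against. The members' means were spread with an SD of 0.18, and those of all genes with an SD of 0.28.

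The absence of a call has limits that limma's 95% intervals show. For 18 of the 35 genes the whole interval lay within 1.5-fold of no difference, and for 33 it lay within 2-fold. Over all genes the shares were 58.8% and 92.8%. These shares depend on the size of a mean as well as on the width of its interval. The 2 intervals that reached past 2-fold belonged to Cdkn1a, from -1.08 to -0.24, and Cdk6, from -0.62 to 1.27. The half-width of the members' intervals ran from 0.40 to 0.95 on the log2 scale, with a median of 0.43, beside 0.43 for all genes. A mean smaller than its own half-width could not be told from 0.

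**Figure D1:**
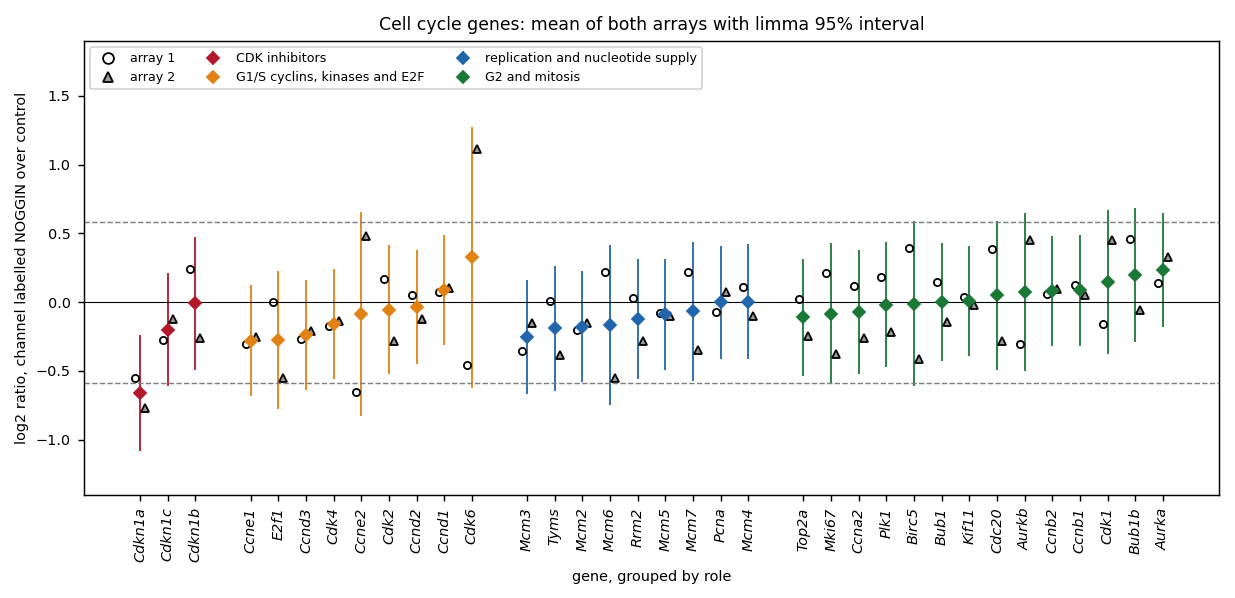
Log2 ratio of the channel labelled NOGGIN over control for each of the 35 genes, grouped by role, with array 1 as open circles, array 2 as triangles, the mean as coloured diamonds and limma's 95% interval as bars; dashed lines mark 1.5-fold. Cdkn1a, at -0.66, has the one interval that does not cross 0.

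The CDK inhibitors held the member whose mean was largest in size. Cdkn1a, which encodes p21 and blocks CDKs on activation by p53 and by other signals, had a normalized log2 intensity of 10.44 in control 1 and 9.89 in NOGGIN 1, and of 10.94 in control 2 and 10.17 in NOGGIN 2. The NOGGIN-labelled sample was the dimmer on each array, as in 23.3% of all genes. The log2 ratios were -0.55 and -0.77, a mean of -0.66 ± 0.16 (SD, n = 2) and an adjusted p of 0.38 in limma's test. Array 1 was just short of 1.5-fold. The gene passed that rule on processed signals (-0.60 and -0.88), after scale normalization (-0.61 and -0.70) and on the authors' deposited values (-0.63 and -0.82, turned to the dye-label direction).

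Cdkn1a was read by 3 probes, all on chromosome 17 of mouse build mm9, and they gave different sizes. Their opening 30 of 60 bases are shown because they are different stretches of the gene, in order from the upstream end, with the log2 ratio of each given after them; exon and UTR annotation of mm9 was not used here.
Cdkn1a probe at 29227986 to 29228045: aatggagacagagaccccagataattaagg
Cdkn1a probe at 29235299 to 29235358: tggggtagtttccatagtgacccgggtcct
Cdkn1a probe at 29237377 to 29237436: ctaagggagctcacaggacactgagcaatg
The downstream probe was the brightest and gave the values above. The upstream probe had log2 ratios of -0.23 and -0.04, and the middle probe -0.10 and -0.45. Both were much dimmer, with log2 intensities of 7.06 to 7.51, against 9.89 to 10.94 for the downstream probe. All 3 were below 0 on both arrays, and their mean was -0.36, so the size of the Cdkn1a difference depends on the probe.

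The other inhibitors were closer to 0. Cdkn1c, which encodes p57 and is expressed from the maternal allele, had log2 intensities of 16.86 and 16.59 in control 1 and NOGGIN 1, and of 16.84 and 16.71 in control 2 and NOGGIN 2. Its mean log2 ratio was -0.20 ± 0.11 (SD, n = 2), with the controls brighter on both arrays and an interval from -0.61 to 0.21 that holds 0. Cdkn1b, which encodes p27, had 0.24 on array 1 and -0.26 on array 2. Its second probe, dim at log2 intensities of 6.81 to 7.31, had 0.18 and 0.29.

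Markers of the cell types in the ureter had the following values on the same arrays. The summed normalized intensity of 7 fibroblast and matrix markers was 823797 to 854708 in controls and 596535 to 621959 in NOGGIN samples. All 7 had log2 ratios below 0 on both arrays, against 23.3% of all genes, with 0 higher and 0 lower by the 1.5-fold rule. The summed intensity of 10 ureteric mesenchyme and smooth muscle markers was 359338 to 394789 in controls and 216228 to 256506 in NOGGIN samples, but the markers split. By the 1.5-fold rule 3 were higher, Sox9 (mean 1.21), Myocd (1.05) and Tbx18 (0.77). Another 3 were lower, Bmp4 (-1.02), Tagln (-0.98) and Cnn1 (-0.80). Over all genes 0.944% were higher and 1.25% lower. The summed level of 12 urothelial markers in NOGGIN samples was 1.25 times that in controls on array 1 and 0.997 times on array 2. These markers split as well: 5 (41.7%) were above 0 on both arrays and 3 (25%) below, against 20.4% and 23.3% of all genes. By the rule 1 of the 12, Upk3b, was higher (0.92 and 0.86) and 0 were lower. Of 6 kidney markers 2, Lhx1 and Wt1, were lower by the rule, and none of 7 macrophage, 7 endothelial, 5 neural or 5 measured red blood cell markers was past it in either direction. The part of such cell types in the Cdkn1a value was not tested.

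Among the regulators of G1 and S entry, 4 of 9 genes were below 0 on both arrays, 1 was above 0 on both and 4 had opposite signs; over all genes 23.3% were below 0 on both arrays and 20.4% above. Ccne1, the cyclin that activates Cdk2 at S phase entry, had log2 intensities of 14.57 in control 1, 14.26 in NOGGIN 1, 14.51 in control 2 and 14.25 in NOGGIN 2. The control sample was the brighter on each array. The mean log2 ratio was -0.28 ± 0.04 (SD, n = 2), with an interval from -0.68 to 0.12. A second probe of Ccne1 had -0.23 and 0.20, so the direction was not shared by both probes. Ccnd3 had -0.27 and -0.21, and Cdk4, the partner of D-type cyclins, had -0.18 and -0.14 on its brightest probe and -0.06, -0.06 and 0.02 as means of its other 3 probes.

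Cdk6, the other partner of D-type cyclins, had the largest mean on the positive side, which is the negative side if the dye labels are exchanged, and the largest SD between arrays of the 35 genes. It measured 9.59 in control 1 and 9.13 in NOGGIN 1, but 8.59 in control 2 and 9.70 in NOGGIN 2. The arrays thus disagreed in sign (-0.46 and 1.11, mean 0.32 ± 1.11 SD). Ccne2 behaved likewise, with -0.66 and 0.48. E2f1, the transcription factor that drives S phase genes, had -0.00 on array 1 and -0.55 on array 2. The D-type cyclins that receive growth signals were near 0, with 0.07 and 0.10 for Ccnd1 and 0.05 and -0.12 for Ccnd2, and Cdk2 had 0.17 and -0.28.

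**Figure D2:**
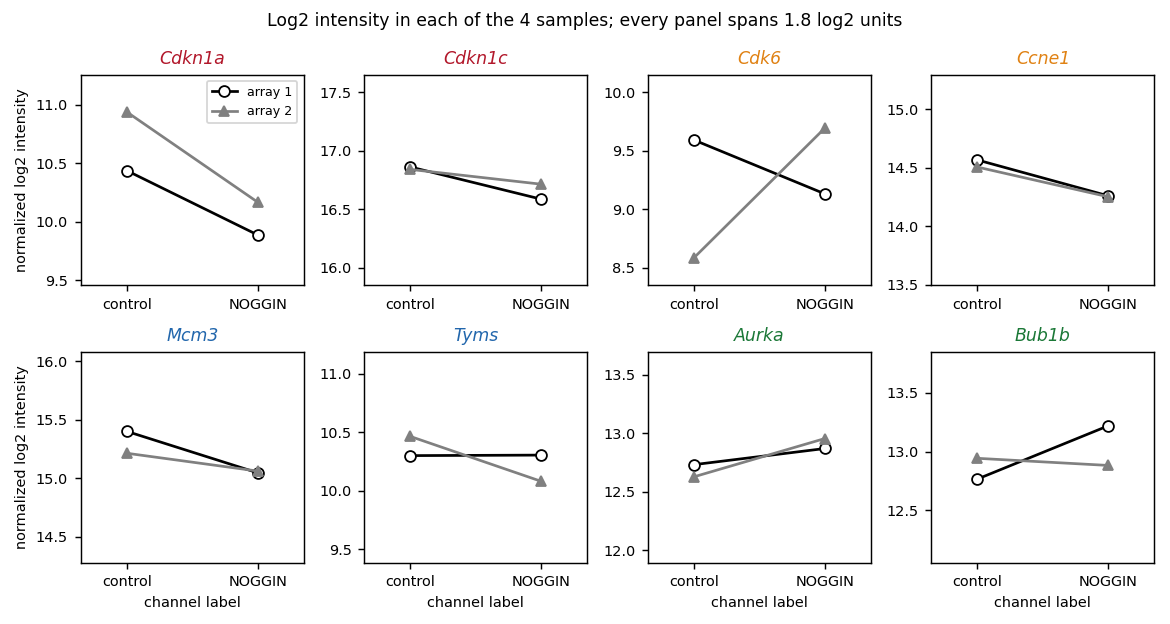
Normalized log2 intensity in the control and NOGGIN channels of array 1 (open circles) and array 2 (triangles) for the 2 genes with the largest mean in each role; every panel spans the same range. Lines slope down on both arrays for Cdkn1a, Cdkn1c, Ccne1 and Mcm3 and up on both for Aurka, while Cdk6 and Bub1b slope in opposite directions and Tyms is level on array 1 (0.004) and slopes down on array 2 (-0.38).

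The replication genes had a median log2 ratio of 0.0044 on array 1 and of -0.15 on array 2. Of 9 genes, 3 were below 0 on both arrays, 0 above 0 on both and 6 had opposite signs. Over all genes 23.3% were below 0 on both arrays and 20.4% above. Means over both arrays ran from -0.25 to 0.00, with a median of -0.13 and an SD among the 9 genes of 0.09. Of the minichromosome maintenance (Mcm) genes, which encode the 6 subunits of the replicative helicase, Mcm3 had the largest mean: 15.40 in control 1, 15.05 in NOGGIN 1, 15.21 in control 2 and 15.06 in NOGGIN 2. The control sample was the brighter on each array. The mean log2 ratio was -0.25 ± 0.14 (SD, n = 2), with an interval from -0.67 to 0.16, and a second Mcm3 probe had -0.24 and -0.19. Mcm2 (-0.20 and -0.15) and Mcm5 (-0.08 and -0.10) were also below 0 on both arrays. Mcm4 (0.11 and -0.10), Mcm6 (0.22 and -0.56) and Mcm7 (0.21 and -0.35) had opposite signs.

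Pcna, the sliding clamp of DNA polymerase, had -0.08 and 0.07 and an interval from -0.41 to 0.41. The enzymes that supply deoxynucleotides differed little. Tyms, thymidylate synthase, had 10.30 in control 1, 10.31 in NOGGIN 1, 10.46 in control 2 and 10.08 in NOGGIN 2, a mean of -0.19 ± 0.27 (SD, n = 2; interval -0.64 to 0.26) that came from array 2. Rrm2, a ribonucleotide reductase subunit, had 0.03 and -0.28.

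The mitotic genes lay around 0. Of 14, 3 (21.4%) were above 0 on both arrays and 0 below, against 20.4% and 23.3% of all genes, and 11 had opposite signs. Means ran from -0.11 to 0.23 with a median of 0.03, and all 14 intervals lay within 2-fold. Mki67, the marker most used for cycling cells, had 0.21 on array 1 and -0.38 on array 2 (mean -0.08, interval -0.60 to 0.43), and its second probe gave 0.26 and -0.35. Top2a, the topoisomerase that untangles sister chromatids, had 0.02 and -0.25.

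Aurka, the kinase of centrosome maturation, had the mean of largest size among the mitotic genes. It measured 12.73 in control 1, 12.87 in NOGGIN 1, 12.63 in control 2 and 12.96 in NOGGIN 2. The NOGGIN sample was thus the brighter on each array, with a mean of 0.23 ± 0.13 (SD, n = 2) and an interval from -0.18 to 0.65. Bub1b, a kinase-like protein of the spindle checkpoint, followed with 12.76, 13.22, 12.94 and 12.88 in control 1, NOGGIN 1, control 2 and NOGGIN 2. Its difference was present on array 1 (0.46) and not on array 2 (-0.06; mean 0.20 ± 0.37 SD, interval -0.29 to 0.69). The checkpoint kinase Bub1 had 0.15 and -0.14.

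The kinase that starts mitosis and its cyclins were close to 0 or uneven. Cdk1 had -0.16 and 0.45 on its brightest probe. Another Cdk1 probe had -0.47 and 0.86, and the last, dim at log2 intensities of 7.26 to 7.46, had 0.20 and -0.05. Ccna2 had 0.12 and -0.26, and Ccnb2 had 0.06 and 0.09. Aurkb, the kinase of the chromosomal passenger complex, had -0.31 and 0.45, and its partner Birc5 had 0.39 and -0.42 on its brightest probe. The other Birc5 probes had 0.20 and 0.28, and -0.06 and 0.33, respectively. Plk1 (0.18 and -0.22), Cdc20, an activator of the anaphase-promoting complex (0.38 and -0.29), and the spindle motor Kif11 (0.04 and -0.02) had opposite signs as well.

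Cyclin B1 was read by 3 probes on chromosome 13 of mm9, on the minus strand, which are shown by their opening 30 bases because they gave unlike values on array 2.
Ccnb1 probe at 101548722 to 101548781: gccacctggaaaagaatcctgtctcatttg
Ccnb1 probe at 101551224 to 101551283: tatgaggagatgtaccctccagaaataggt
Ccnb1 probe at 101553449 to 101553508: tgagtgatgtagacgcagatgatggagctg
The probe at the lowest coordinates was the brightest and had 0.13 on array 1 and 0.05 on array 2. The others had 0.03 and 1.01, and 0.10 and 0.89, respectively. The 3 probes thus lay within a narrow range on array 1 and apart on array 2, and the mean over all 3 probes was 0.37 in place of 0.09 for the brightest.

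**Figure D3:**
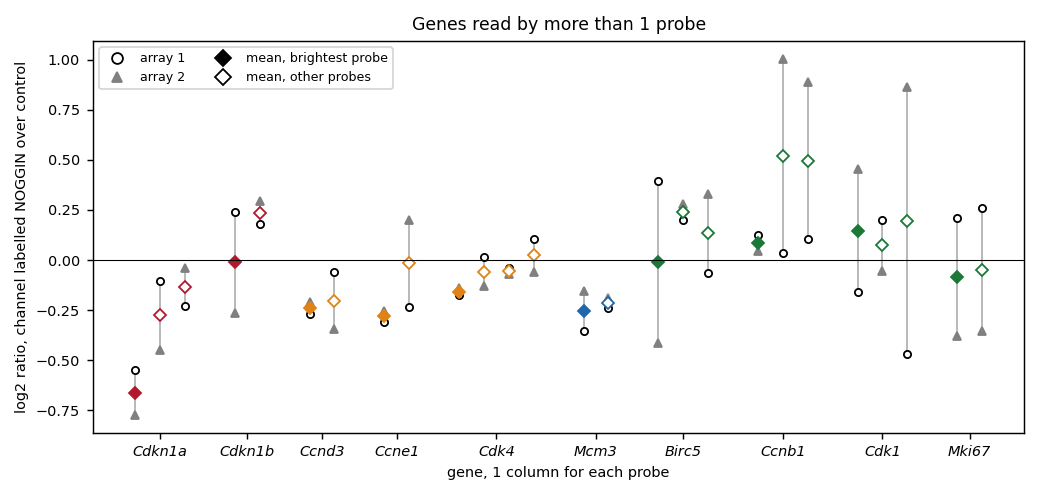
Log2 ratios of each probe of the 10 genes that had more than 1, with array 1 as open circles, array 2 as triangles and the mean as diamonds (filled for the brightest probe). The brightest Cdkn1a probe (-0.66) stands below the other 2, and 2 of the 3 Ccnb1 probes reach 0.89 and 1.01 on array 2.

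Compared by phase, the role groups differed by small amounts. The median of the mean log2 ratios was -0.20 for the CDK inhibitors, -0.09 for the G1/S regulators, -0.13 for the replication genes and 0.03 for the mitotic genes. On array 1 alone the medians were, in that order, -0.28, -0.18, 0.0044 and 0.13, and on array 2 alone -0.26, -0.14, -0.15 and -0.10. Scale normalization moved the G1/S median to -0.15. With median centring in place of loess the mitotic median was -0.00, so its side of 0 depends on the scaling. In the dye-label direction the mitotic median exceeded the replication median by 0.13 on array 1 and 0.05 on array 2, and the G1/S median by 0.31 and 0.04. The replication and G1/S medians changed order between arrays (0.18 and -0.01). With 2 arrays the smallest p that an exact sign permutation could give is 0.5, so these differences between phases were not tested.

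Wider lists of the same pathways were also examined. Of 37 other genes of G2 and mitosis, none was past 1.5-fold on both arrays, against 2.19% of all genes. On both arrays 14 (37.8%) were above 0 and 4 (10.8%) below, against 20.4% and 23.3% of all genes. The list had a median of 0.06. Its largest mean was 0.45 for Ndc80, a kinetochore component, with 0.13 and 0.78. Of 32 other replication genes none was past 1.5-fold either. On both arrays 2 (6.25%) were above 0 and 8 (25%) below, the latter near the share of all genes, with a median of -0.09. Cdc45, a helicase cofactor, had the largest mean there, 0.59, with 0.26 and 0.93, opposite in sign to its list's median. In the same direction the other mitotic median exceeded the other replication median by 0.12 on array 1 and 0.15 on array 2.

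Of 20 other E2F, retinoblastoma family and INK4 genes none was past 1.5-fold on both arrays, against 2.19% of all genes, and the median was -0.08. On both arrays 6 (30%) were below 0 and 0 above, against 23.3% and 20.4% of all genes. The INK4 inhibitor Cdkn2b had -0.70 and -0.23, the largest mean of that list. Of 12 MYC family and growth-signal genes none was past 1.5-fold on both arrays, against the same 2.19%. On both arrays 3 (25%) were below 0 and 1 (8.33%) above. The largest mean was that of Jun, with -0.79 and -0.49.

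**Figure D4:**
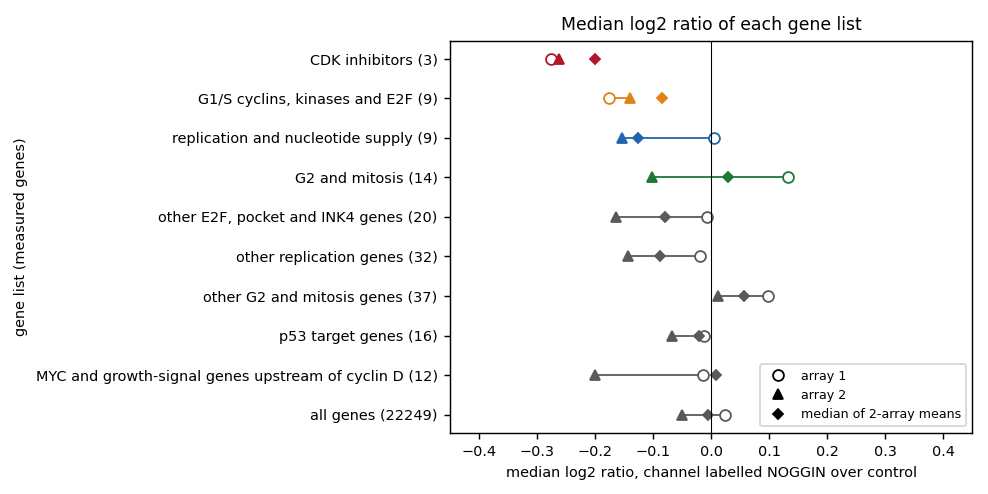
Median log2 ratio of each gene list on array 1 (open circles), on array 2 (triangles) and of the means over both arrays (diamonds), with the number of measured genes. The mitotic lists lie at 0.03 (-0.00 with median centring) and 0.06 and the replication lists at -0.13 and -0.09; a median of means need not lie between the medians of the arrays.

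Because Cdkn1a is a target of p53, 16 other p53 target genes were examined. By the 1.5-fold rule 2 were lower and 0 higher, against 1.25% and 0.944% of all genes. Pmaip1, a BH3-only activator of cell death, had -1.19 and -1.68, and the stress gene Gadd45a, which also binds Cdkn1a protein and Pcna, had -0.91 and -0.81. Their limma adjusted p were 0.121 and 0.212. The other 14 were not past 1.5-fold on both arrays: the p53 ubiquitin ligase Mdm2 had a mean of -0.02, Ccng1 had 0.09 and Bax had 0.00, and Trp53inp1 had 0.45 in the other direction. Of the whole list 7 were below 0 on both arrays (43.8%, against 23.3% of all genes), 5 above (31.3%, against 20.4%) and 4 had opposite signs. The median of the list was -0.02, beside -0.01 for all genes. A part of p53 in the Cdkn1a value was not tested.

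Many of the cell cycle genes had opposite signs on the 2 arrays: 22 of 35, or 62.9%, against 56.2% of all genes. Of these 22, 17 were brighter in the green channel on both arrays and 5 in the red channel, whichever sample it held. Over all genes the counts were 7611 and 4899. The mitotic genes had the lowest median red-over-green component among the roles, -0.14, beside -0.04 for all genes. A dye effect and a real difference between the 2 pairs of cultures cannot be told apart in a single ratio of this kind, and the mean over both arrays, used throughout, cancels a constant dye effect. The median SD between arrays was 0.20 for the members and 0.19 for all genes, more than the median size of the members' means, 0.0869.

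**Figure D5:**
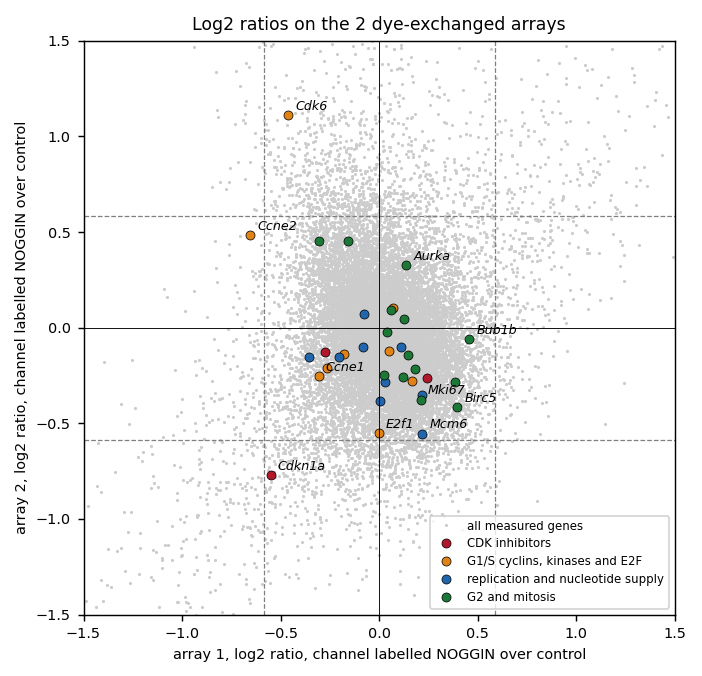
Log2 ratio on array 2 against array 1 for all measured genes (grey) and for the cell cycle genes by role (colours); dashed lines mark 1.5-fold and the axes stop at 1.5 in each direction. Cdkn1a lies in the lower left corner near both lines, Cdk6 and Ccne2 lie at the upper left, and most mitotic genes lie at the lower right of the origin.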

How the data were processed

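Per the file headers, the deposited scanner files hold spot intensity values; the submitters' processing notes name Agilent Feature Extraction 10.7.3.1. Red was AlexaFluor647 and green AlexaFluor555, per the labels. The authors also deposited a signed score per probe, for which no scale or normalization was found. Its median was 1 on both arrays, and on a log scale it correlated at -0.906 and -0.952 with the dye-label ratio; it was read as a signed linear fold change, and its direction and centring stay unknown.

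Mean signals underwent normexp correction (offset 50) and loess within arrays in limma 3.58.1 under R 4.3.3, with control spots given no weight. Outlier spots were dropped (3.48% and 3.37%), and 0 were saturated. Each probe's value is the mean of its 4 spots. The 29649 probes retained had most spots well above background in 1 or both channels of each array. The brightest probe, under the file's gene name, stood for a gene. Sample intensities were taken after Aquantile normalization. Log2 ratios were fitted with lmFit and eBayes (residual df 1, prior df 4.34). Tests were two-sided with Benjamini-Hochberg adjustment over all genes, and intervals are limma's. The fit was tested on simulated data. An array's ratio pairs the samples that share it.

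Members and lists were chosen with earlier results of these data known. Described in full were members past 1.5-fold on both arrays or under an unadjusted 0.05, and the 2 largest means of each role; other members are given by ratio. Other lists contribute genes past 1.5-fold, or else the largest mean. Cell type marker lists without a gene past 1.5-fold are given by counts or sums only. Mdm2, Ccng1, Bax and Trp53inp1 were picked with their values in view. Figures used matplotlib 3.10.9.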

Additional observations from a re-analysis of the deposited data

How the results depend on the processing

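The count of members past 1.5-fold on both arrays, 0 as reported, became 1 (Cdkn1a) on processed signals, with scale normalization, on the authors' deposited values and at 1.2-fold, where the background was 4.09% lower and 3.16% higher; on single arrays it was 1 to 2 (Ccne2 without array 2; Cdk6 and Cdkn1a without array 1). It stayed 0 in the other settings tried, including names updated through RefSeq accessions. Among these, changes of the background filter or variance model and the fit of separate channels kept the members' array ratios and could not move it. The updated names added 0 probes to the members, and a limit of 2-fold could not raise a count that was 0 at 1.5-fold. The G1/S median, -0.09 as reported, was -0.11 with median centring, -0.15 with scale normalization and -0.12 on the authors' values, and -0.18 to -0.14 on single arrays. The CDK inhibitor median, -0.20, was -0.23 on processed signals, -0.21 with median centring and -0.28 on the authors' values, and -0.28 to -0.26 on single arrays. The replication median ran from -0.15 to 0.0044 and the mitotic median from -0.10 to 0.13 on single arrays. Over 12 settings that kept both arrays, 24 of 420 member values changed sign, all in 7 genes with a reported mean within 0.02 of 0. Part of the 420 could not change: other background filters, the trended variance and the separate channels left every member's mean as it was. In no setting did a member pass an adjusted p of 0.05. Cdkn1a ran from -0.74 to -0.36, the smaller value being the mean of its probes, with adjusted p from 0.32 to 1.

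By adjusted p, 0 of all genes were called as reported, beside 1346 without adjustment. Omitting the background correction gave 35 calls, median centring 114 and requiring both channels above background 100. Keeping outlier spots gave 22, a trended robust variance 140, and a limit of 0.1 gave 27. The 488 genes past 1.5-fold became 839 on processed signals and 960 to 2629 on single arrays. A fit of separate channels with a dye term and no replicate block gave 0 calls by adjusted p. It kept the array ratios of the reported fit, so its 1.5-fold counts could not differ. The causes were not tested.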
